A study of Mus musculus with 6 samples.

Results

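Thermogenic adipocyte genes are described here in the inguinal white fat of mice whose adipocytes were targeted for loss of Igf1r, which encodes the receptor of insulin-like growth factor 1. The members were chosen by name, with earlier results of these data known. They are 10 genes that mark or drive heat-producing fat cells: Ppargc1a, Ppargc1b, Esrra, Prdm16, Ebf2, Dio2, Cidea, Elovl3, Cox7a1 and Cox8b. Of these 10 genes 9 have a row in the deposited table of 14861 genes, and 8 passed the filter on low values and were tested. Elovl3, an elongase of very long chain fatty acids, is not analysed here, and Dio2 was below the filter.

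The AdIGF1RKO group had 3 libraries from mice that carried floxed Igf1r alleles and the Adipoq-Cre transgene. The Flox group had 3 libraries from littermates with the floxed alleles, and the labels name no Cre for them. Adipoq-Cre acts in cells that express adiponectin, so vascular, immune and progenitor cells of the pad keep the receptor gene. All mice ate a diet with 10% of energy from fat (D12450J), for 24 weeks per the series' design text, and fasted overnight before the tissue was taken, and their age is not given in the sources used here. Libraries were made from polyadenylated RNA of whole inguinal fat, so fewer cells of a type and less RNA per cell cannot be told apart. Nothing in the labels says that the libraries came from separate litters or days, and p-values measure the spread between these 6 samples.

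Brown and beige adipocytes burn fuel in their mitochondria and release the energy as heat. In mice the inguinal pad is white fat in which beige cells appear with cold or adrenergic stimulation. Noradrenaline raises cAMP in the adipocyte, which induces Ppargc1a and Dio2. The coactivators encoded by Ppargc1a and Ppargc1b then act with nuclear receptors such as ERRα, the product of Esrra, on mitochondrial genes, while Prdm16 and Ebf2 set the identity of the cell. Several of these genes also serve skeletal muscle, among them Ppargc1a, Ppargc1b, Esrra, Cox7a1 and Cox8b.

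Promoter sequences of the members were searched for exact matches to short motifs, among them the cAMP response element. RefSeq promoters on build GRCm38.p6 were at hand for 6 of the 10 members, and the 250 bases before the annotated start were searched on both strands. The motifs were the ERR element TNAAGGTCA, the PPAR direct repeat, the cAMP response element TGACGTCA and the palindromic NRF1 element. The muscle-type E-box CAGCTG was added after the values were seen. Over all 32851 promoter entries, 1.14% held the ERR element, 0.0335% the PPAR direct repeat, 1.55% the cAMP response element, 0.14% the NRF1 element and 13.0% the E-box. Among the 6 member promoters, Dio2 held 1 cAMP response element, which begins 95 bases before the start, and Cox8b held 1 E-box, which begins 19 bases before it. The promoters of Ppargc1a, Prdm16, Esrra and Cox7a1 held none of the searched motifs in this window. A match is a description of the letters, and variants with a mismatch or sites outside this window were not searched. The Dio2 window is chr12:90739039-90739288 on the minus strand, that of Cox8b is chr7:140900447-140900696 on the minus strand and that of Cox7a1 is chr7:30183921-30184170 on the plus strand. Capitals mark the match:
Dio2: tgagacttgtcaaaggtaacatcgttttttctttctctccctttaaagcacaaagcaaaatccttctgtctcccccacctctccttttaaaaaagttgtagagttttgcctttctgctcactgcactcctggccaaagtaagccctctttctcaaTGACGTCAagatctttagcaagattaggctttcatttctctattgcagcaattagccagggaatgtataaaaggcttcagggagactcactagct
Cox8b: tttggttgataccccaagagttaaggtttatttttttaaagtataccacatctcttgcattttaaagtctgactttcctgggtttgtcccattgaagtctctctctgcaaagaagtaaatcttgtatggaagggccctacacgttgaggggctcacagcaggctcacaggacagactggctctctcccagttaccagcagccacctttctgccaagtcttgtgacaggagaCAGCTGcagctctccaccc
Cox7a1: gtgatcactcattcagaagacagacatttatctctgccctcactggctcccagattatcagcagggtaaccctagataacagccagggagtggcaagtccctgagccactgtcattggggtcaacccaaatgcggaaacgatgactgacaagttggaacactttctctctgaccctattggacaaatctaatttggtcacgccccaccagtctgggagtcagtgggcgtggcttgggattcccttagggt

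Levels are given as scaled CPM, which are reads per 1000000 reads of a library of average size after median-ratio scaling. Between 60617147 and 70695527 reads per library were recovered from the table. Group differences are log2 differences of scaled CPM plus 1, AdIGF1RKO minus Flox, from limma over all 12993 tested genes, two-sided, with Benjamini-Hochberg adjustment and a threshold of 0.05. Igf1r had 6.11, 5.27 and 4.85 scaled CPM in AdIGF1RKO, against 6.44, 6.47 and 5.86 in Flox, and these groups overlapped. The log2 difference of Igf1r was -0.18 (SE 0.12, limma unadjusted p = 0.188, adjusted p = 0.998), and -0.26 to -0.12 when 1 library was left out. With the values as deposited its groups did not overlap, at 5.76, 4.86 and 5.43 in AdIGF1RKO, against 6.84, 6.77 and 7.22 in Flox. Markers of mature adipocytes took 5.80% to 6.62% of reads in AdIGF1RKO and 4.52% to 7.57% in Flox, so the tissue label holds. The libraries differed in skeletal muscle RNA: 22 muscle markers took 0.0436%, 0.274% and 4.74% of reads in AdIGF1RKO 1, 2 and 3, against 0.905%, 0.0999% and 12.9% in Flox 1, 2 and 3. AdIGF1RKO 3 and Flox 3 therefore stand apart, and results that touch muscle genes are given with and without them. Of the other cell types, lipid-associated macrophage markers took 0.0660% of reads in AdIGF1RKO 2 and at most 0.0178% in each of the other 5 libraries.

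No member passed the limma test. Of 8 tested members 0 were called, and over all tested genes 0.0% were called (0 of 12993). At an unadjusted p under 0.05 limma took 0 of the 8 members and 385 of all genes (2.96%), of which 238 were higher and 147 (1.13% of all genes) lower in AdIGF1RKO. That split followed the library scaling, with 57 higher and 458 lower for the values as deposited, 219 higher and 25 lower with equal sums, and 271 higher and 32 lower with equal sums of mature adipocyte markers. The values as deposited moved the median of all tested genes to -0.17, against -0.02 with median-ratio scaling, and directions below are those with median-ratio scaling. A fit that blocked on the replicate number took 582 genes. edgeR called 0 genes and took 378 (2.91%) at an unadjusted p under 0.05. DESeq2 called 23 of 12932 genes (0.178%), none of them a member, and took 494 (3.8%) at an unadjusted p under 0.05. The median log2 difference of the 8 members was -0.25, against -0.02 for all tested genes, with 6 negative and 2 positive values. It was -0.12 without AdIGF1RKO 3 and Flox 3, -0.13 with the muscle share as a covariate, -0.16 without AdIGF1RKO 2 and -0.09 without Flox 3. A negative difference was found for 55.2% of all tested genes, for 50.8% without AdIGF1RKO 3 and Flox 3, where 5 of the 8 members were negative, and for 54.4% with the covariate, where 6 were. In 1 of the 8 members the groups did not overlap, against 8.27% of all tested genes.

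**Figure D1:**
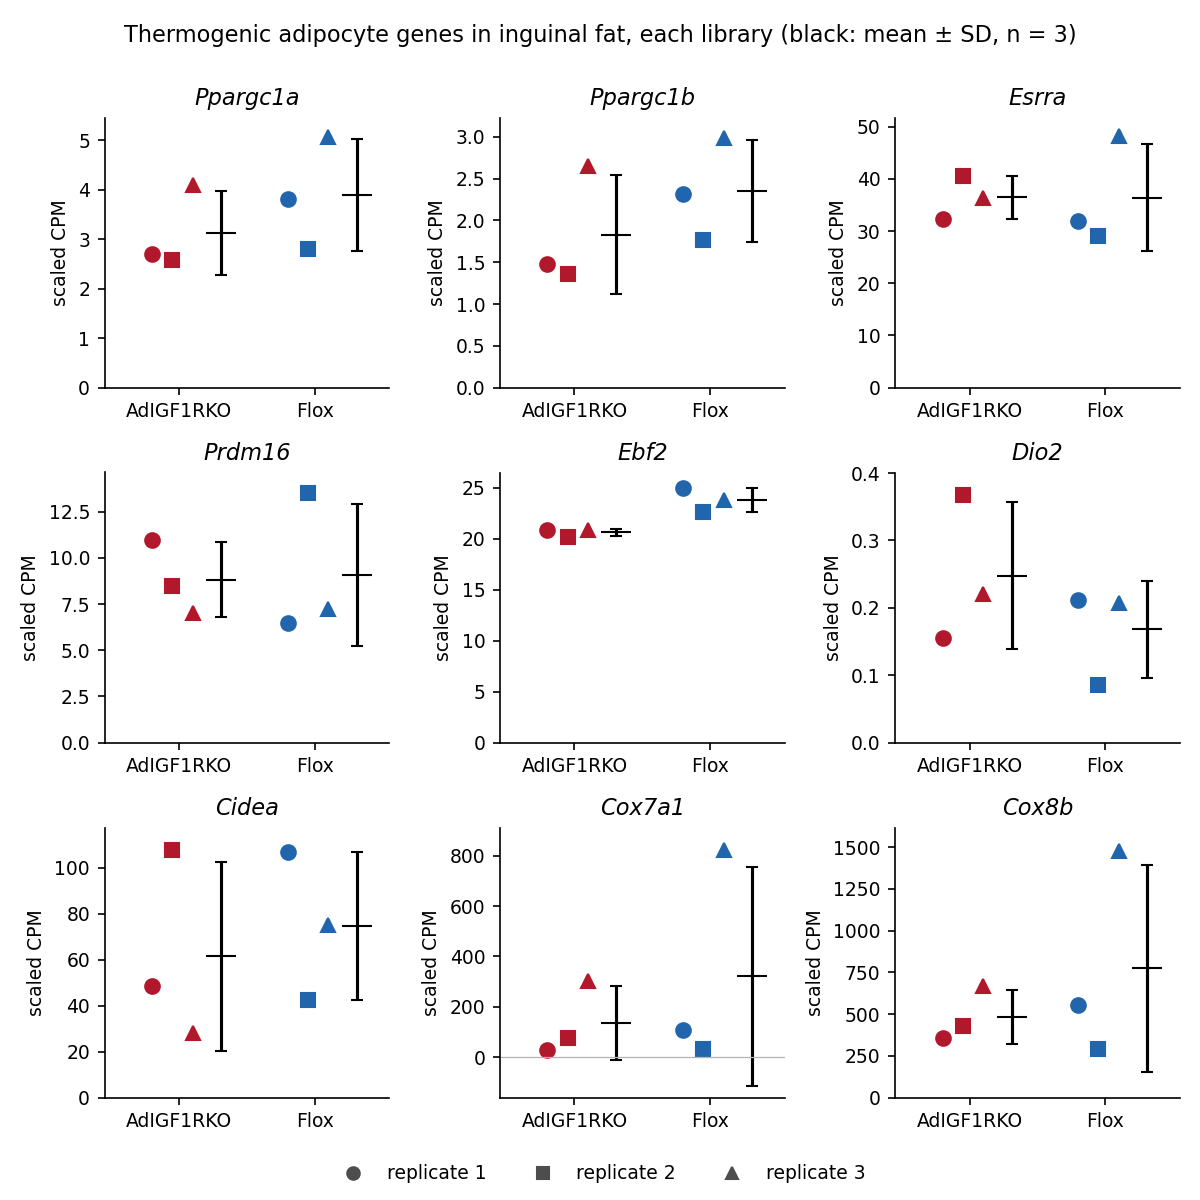
Scaled CPM of the 9 members with a row in the table, each library as a point (AdIGF1RKO red, Flox blue, the shape giving the replicate) and mean ± SD in black (n = 3 per group). The groups overlap for each gene except Ebf2, and replicate 3 is the highest point of its group for Ppargc1a, Ppargc1b, Cox7a1 and Cox8b.

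Per length the members spanned a wide range. Divided by the exon length of each gene in GENCODE vM21, Cox8b was highest with 1347 ± 447 scaled CPM per kb in AdIGF1RKO and 2149 ± 1728 in Flox (SD, n = 3 each). It was followed by Cox7a1 with 256 ± 274 in AdIGF1RKO and 600 ± 813 in Flox, and by Cidea with 55.1 ± 37.0 in AdIGF1RKO and 67.1 ± 28.8 in Flox. Esrra had 16.3 ± 1.86 per kb in AdIGF1RKO and 16.2 ± 4.59 in Flox, and Ebf2 had 3.63 ± 0.0663 in AdIGF1RKO and 4.19 ± 0.206 in Flox. Prdm16 stood at 1.02 ± 0.235 in AdIGF1RKO and 1.055 ± 0.449 in Flox. Ppargc1b and Ppargc1a stood below 0.8 per kb in every library, and Dio2 was lowest with 0.0426 ± 0.0187 in AdIGF1RKO and 0.0289 ± 0.0123 in Flox. Each neighbour in this order was higher than the next in 6 of 6 libraries, except that Ppargc1b was above Ppargc1a in 4 of 6.

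Among the regulators, Ebf2 was the member whose groups did not overlap. Ebf2 encodes a transcription factor that marks brown and beige precursors and opens the chromatin of thermogenic genes. It had 20.9, 20.2 and 20.8 scaled CPM in AdIGF1RKO, against 24.99, 22.7 and 23.8 in Flox. The AdIGF1RKO libraries lay close together and all below the Flox libraries. The log2 difference was -0.20 (SE 0.09, 95% interval -0.41 to 0.01, limma unadjusted p = 0.0606, adjusted p = 0.998). Over all tested genes 3.86% had all AdIGF1RKO libraries below all Flox libraries, and with 8 members no more is read from 1 such gene. Without AdIGF1RKO 3 and Flox 3 the log2 difference of Ebf2 was -0.20, and with the muscle share as a covariate it was -0.19. The separation depended on the scaling: with libraries scaled to equal sums Ebf2 had 22.8, 21.4 and 20.5 CPM in AdIGF1RKO, against 26.6, 23.5 and 18.9 in Flox, which overlap. The groups also overlapped when libraries were scaled to equal sums of mature adipocyte markers, a scaling chosen after seeing the data. The difference of Ebf2 was -0.079 with equal sums, -0.11 with equal sums of mature adipocyte markers and -0.35 with the values as deposited. The limma unadjusted p-values of these fits were 0.640, 0.525 and 0.0412. The limma unadjusted p was 0.0482 with the filter at a mean of 5 and 0.0228 with array quality weights. The adjusted p of Ebf2 ranged from 0.722 to 1.00 over the alternatives, limma, edgeR and DESeq2 included. Markers of adipocyte progenitors, cells that also express Ebf2, summed to 3731 to 4190 scaled CPM in AdIGF1RKO and 3853 to 4588 in Flox, and 5 of the 8 were negative with a median log2 difference of -0.06. Without AdIGF1RKO 3 and Flox 3 these markers were negative in 7 of 8 with a median of -0.10, and without Flox 3 alone in 8 of 8 with a median of -0.16. Their part in the Ebf2 difference was not tested.

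Prdm16, a zinc finger protein that holds brown and beige identity, had 11.0, 8.45 and 6.996 scaled CPM in AdIGF1RKO, against 6.48, 13.5 and 7.23 in Flox. Its highest and lowest libraries were both Flox. The log2 difference of Prdm16 was 0.01 with a 95% interval from -0.68 to 0.69, an interval that includes differences of either sign. Esrra had 32.3, 40.6 and 36.4 scaled CPM in AdIGF1RKO, against 31.9, 29.1 and 48.2 in Flox, with Flox 3 highest. The Esrra difference was 0.03 with a 95% interval from -0.45 to 0.51. For the values as deposited the differences were -0.14 for Prdm16 and -0.13 for Esrra. Without AdIGF1RKO 3 and Flox 3 the log2 difference of Esrra was 0.24 (limma unadjusted p = 0.154, adjusted p = 0.998).

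Both coactivator genes followed each other closely. Ppargc1a had 2.70, 2.57 and 4.10 scaled CPM in AdIGF1RKO, against 3.80, 2.81 and 5.06 in Flox. Ppargc1b had 1.48, 1.36 and 2.65 in AdIGF1RKO, against 2.32, 1.77 and 2.98 in Flox. In both genes the order of the 6 libraries was Flox 3, AdIGF1RKO 3, Flox 1, Flox 2, AdIGF1RKO 1 and AdIGF1RKO 2. Likeness was measured as the root mean square distance between mean-centred log2 profiles over the 6 libraries. The distance of both genes was 0.0558, and each was the nearest of 12992 other tested genes to the other. Such distances are small for low values, which the added 1 compresses, and the libraries share their differences in muscle RNA. The values rest on 182 to 269 reads for Ppargc1a and 96 to 168 reads for Ppargc1b. The log2 difference of Ppargc1a was -0.24 (95% interval -0.79 to 0.31, limma adjusted p = 0.998), and that of Ppargc1b was -0.26 (-0.82 to 0.30, limma adjusted p = 0.998). With the muscle share as a covariate they were -0.12 and -0.14. Without AdIGF1RKO 3 and Flox 3 they were -0.23 for Ppargc1a and -0.33 for Ppargc1b. In AdIGF1RKO 3 Ppargc1a was 1.55 times the mean of AdIGF1RKO 1 and 2, and in Flox 3 it was 1.53 times the mean of Flox 1 and 2. For Ppargc1b these ratios were 1.87 in AdIGF1RKO 3 and 1.46 in Flox 3.

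The effectors turn the programme into heat and fuel supply. Dio2 encodes the deiodinase that makes active thyroid hormone inside the cell. It was near the limit of detection, with 12, 26 and 14 reads in AdIGF1RKO, against 15, 6 and 10 reads in Flox, or 0.156, 0.368 and 0.221 scaled CPM in AdIGF1RKO, against 0.212, 0.0855 and 0.207 in Flox. The groups overlapped, and the fit without a filter gave a log2 difference of 0.09 with a 95% interval from -0.14 to 0.33 (limma adjusted p = 0.999). On this scale the added 1 compresses nearly all of a change at so low a level, and the interval sets no limit on the fold: the ratio of means was 1.47. These counts carry a large counting error, and no difference in Dio2 was resolved. What size of difference could be detected was not tested.

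Cidea encodes a lipid droplet protein that is abundant in brown adipocytes and low in resting white ones. It had 48.7, 107 and 28.0 scaled CPM in AdIGF1RKO, against 107, 42.5 and 75.2 in Flox. AdIGF1RKO 2 and Flox 1 were highest, AdIGF1RKO 3 was lowest, and the groups overlapped. The log2 difference was -0.40 (SE 0.53, 95% interval -1.68 to 0.89, limma adjusted p = 0.998). It was -0.90 without AdIGF1RKO 2 and 0.10 without AdIGF1RKO 3 and Flox 3. Cidea did not follow the muscle markers: AdIGF1RKO 3 had the second highest muscle share and the lowest Cidea. AdIGF1RKO 2, which held the most lipid-associated macrophage RNA, shared the highest Cidea level with Flox 1, where those markers took 0.0171% of reads.

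The highest library of Cidea was 3.84 times its lowest, so the rule for naming like genes did not take it, and its neighbours were looked up after the values were seen. Nearest of all, at a distance of 0.315, was Aspg, an asparaginase gene of the list of brown and beige genes described below, and that it resembles Cidea was fixed by the search. Aspg had 1.30, 2.69 and 0.741 scaled CPM in AdIGF1RKO, against 2.57, 1.33 and 2.49 in Flox. Tmem253 and Kcnk5, a potassium channel gene, came next at distances of 0.326 and 0.362. Otop1, a proton channel gene of brown fat chosen after its values were seen, had 4.94, 14.5 and 4.90 in AdIGF1RKO, against 9.34, 3.01 and 4.35 in Flox. AdIGF1RKO 2 and Flox 1 were the highest libraries for Otop1 also, while its Flox 3 level was below that of AdIGF1RKO 1, unlike Cidea. Of the 30 tested brown and beige genes outside the members 8 had AdIGF1RKO 2 and Flox 1 as their highest libraries (26.7%), against 1037 of all tested genes (7.98%), a tally made after the values were seen and given with no test. None of these 4 genes passed the limma test (adjusted p = 0.998 each).

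Cox7a1 and Cox8b encode the muscle-type isoforms of subunits of cytochrome c oxidase, the last enzyme of the respiratory chain, which brown fat uses as well. Cox7a1 had 30.7, 75.3 and 304 scaled CPM in AdIGF1RKO, against 110, 32.6 and 821 in Flox. Its level was highest in Flox 3 and AdIGF1RKO 3 and lowest in AdIGF1RKO 1 and Flox 2, the order of the muscle share. Cox8b had 359, 430 and 666 in AdIGF1RKO, against 557, 289 and 1475 in Flox, with the same highest libraries. The log2 difference of Cox7a1 was -0.68 with a 95% interval from -3.81 to 2.44, and that of Cox8b was -0.40 with an interval from -1.80 to 0.99. Neither passed (limma adjusted p = 0.998 each). Without AdIGF1RKO 3 and Flox 3 the differences were -0.31 and -0.03. With the muscle share as a covariate the difference of Cox7a1 was 0.15 with a 95% interval from -0.42 to 0.72, and that of Cox8b was -0.06 with an interval from -0.65 to 0.53. Without Flox 3 alone they were 0.57 and 0.22, so the direction turned without that library. Without AdIGF1RKO 1 the difference of Cox7a1 was 0.07. Beyond these fits the part of muscle RNA in the differences was not tested.

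**Figure D2:**
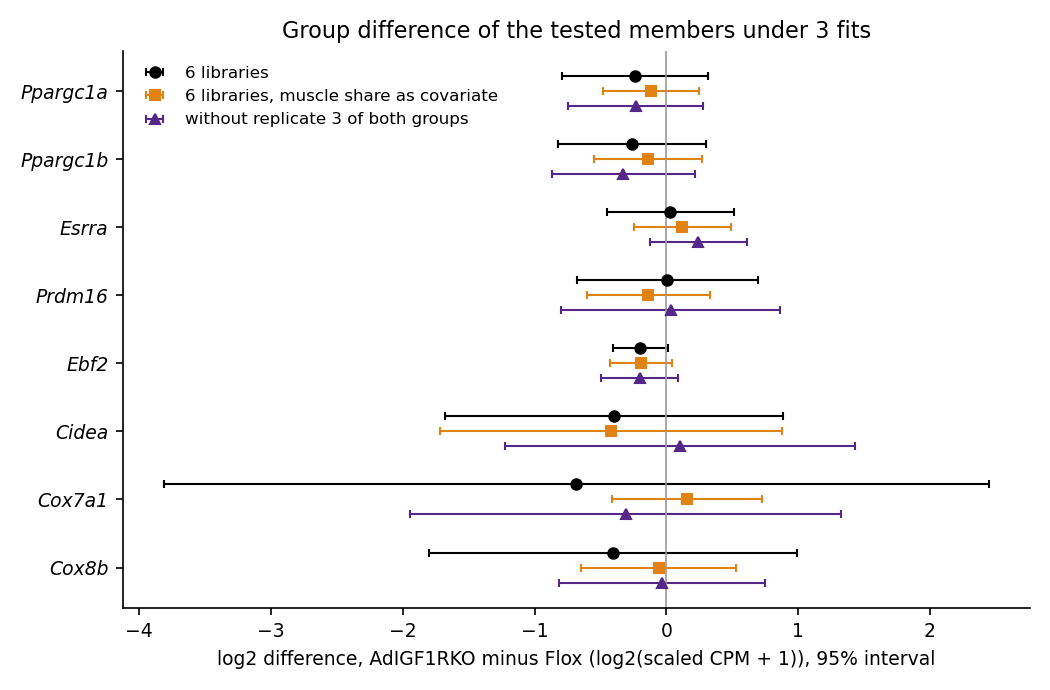
Log2 difference, AdIGF1RKO minus Flox, of the 8 tested members with 95% intervals (horizontal axis, log2(scaled CPM + 1)) in 3 fits: 6 libraries, 6 libraries with the muscle share as a covariate, and without replicate 3 of both groups. Every interval includes 0, and that of Cox7a1 narrows from -3.81 to 2.44 in the first fit to -0.42 to 0.72 with the covariate.

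The span over libraries differed between the members. The summed muscle markers had 399, 2588 and 48071 scaled CPM in AdIGF1RKO, against 8496, 964 and 161591 in Flox, a span of 405 times between the highest and the lowest library. Cox6a2, the muscle-type isoform of another subunit of the enzyme, spanned 344 times, Cox7a1 26.7 times, Cox8b 5.10 times, Dio2 4.30 times on few reads, Cidea 3.84 times, Ppargc1b 2.20 times, Prdm16 2.08 times, Ppargc1a 1.96 times, Esrra 1.65 times and Ebf2 1.24 times. Among the members only Cox7a1 kept the full order of the muscle share. Cox8b, Ppargc1a and Ppargc1b shared its highest libraries, Flox 3, AdIGF1RKO 3 and Flox 1 in that order. Cidea, Prdm16, Ebf2, Esrra and Dio2 did not. A peak in Flox 3 is common by itself: Flox 3 was the highest library for 3999 of all 12993 tested genes (30.8%). Cox6a2 had 2.13 scaled CPM in AdIGF1RKO 1, where the muscle share was lowest and Cox7a1 still had 30.7 and Cox8b 359. The genes most like Cox7a1 were Serinc2, Smco1 and the protein kinase A inhibitor gene Pkia, at distances of 0.199 to 0.205 against a standard deviation of 1.84 for Cox7a1 itself. Those most like Cox8b were Klhl23, the ectodysplasin receptor gene Eda2r and the calcium channel subunit gene Cacna2d4, at distances of 0.102 to 0.164 against a standard deviation of 0.831. That these 6 genes peak where the members do was fixed by the search. Before 1 is added Serinc2 spanned 424 times, Smco1 384 times and Cacna2d4 36.9 times, so their nearness rests on the added 1, which compresses their values near 0. Pkia, at a higher level, spanned 23.5 times.

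**Figure D3:**
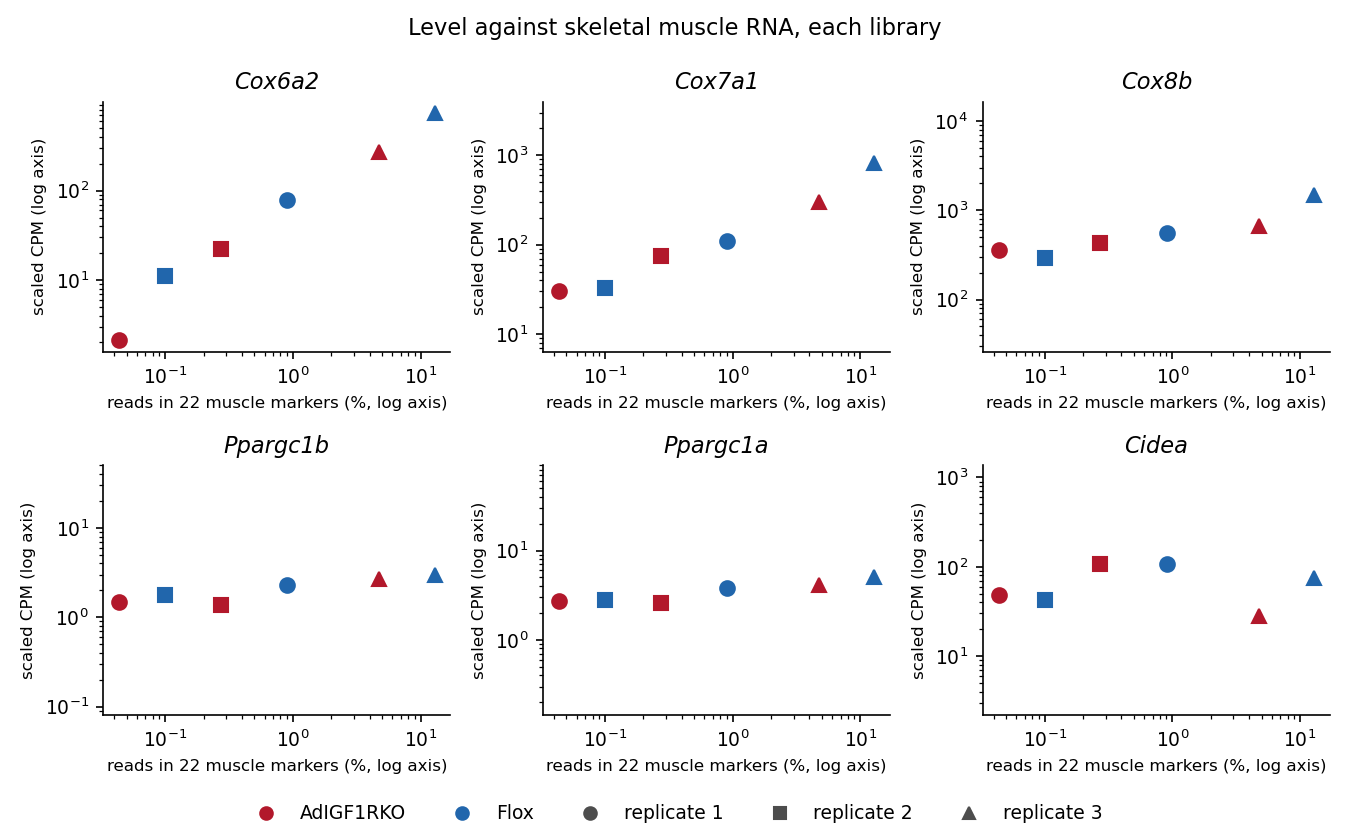
Scaled CPM of 5 members and Cox6a2 (vertical, log axis, the same number of decades in each panel) against the percentage of reads in 22 skeletal muscle markers (horizontal, log axis), 1 point per library. Cox6a2 and Cox7a1 climb with the muscle share, Cox8b less, and Cidea is lowest in AdIGF1RKO 3, where the muscle markers took 4.74% of reads.

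The ubiquitous isoforms of the same subunits spanned less across the libraries. Cox7a2 had 531 ± 53.0 scaled CPM in AdIGF1RKO and 579 ± 88.4 in Flox, Cox8a had 1063 ± 181 in AdIGF1RKO and 1130 ± 96.1 in Flox, and Cox6a1 had 733 ± 70.5 in AdIGF1RKO and 809 ± 48.3 in Flox (SD, n = 3 each). Read ratios of the muscle-type to the ubiquitous isoform within a library do not depend on library scaling. Cox7a1 to Cox7a2 was 0.0651, 0.138 and 0.529 in AdIGF1RKO, against 0.198, 0.0644 and 1.21 in Flox. Cox8b to Cox8a was 0.415, 0.352 and 0.603 in AdIGF1RKO, against 0.473, 0.242 and 1.45 in Flox. Cox6a2 to Cox6a1 was 0.00320, 0.0274 and 0.372 in AdIGF1RKO, against 0.0955, 0.0132 and 0.970 in Flox. All 3 ratios were highest in Flox 3 and next highest in AdIGF1RKO 3. The log2 differences of the ratios were -0.57, -0.30 and -1.74, with two-sided exact permutation p-values of 0.7, 0.8 and 0.5, where 3 against 3 cannot give less than 0.1. Without AdIGF1RKO 3 and Flox 3 the difference of the Cox8b ratio was 0.18, while those of the Cox7a1 and Cox6a2 ratios stayed negative.

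Nearest relatives of the other members also overlapped between groups. Cidec, the white fat relative of Cidea that enlarges lipid droplets, had 2027 ± 259 scaled CPM in AdIGF1RKO and 1975 ± 340 in Flox. Ebf1, a broadly expressed adipocyte relative of Ebf2, had 70.5 ± 6.43 in AdIGF1RKO and 70.2 ± 10.6 in Flox, with a log2 difference of 0.01 (95% interval -0.32 to 0.35) that was -0.15 for the values as deposited. Mecom, a relative of Prdm16, had 8.85 ± 0.900 in AdIGF1RKO and 8.91 ± 1.45 in Flox. Pprc1, a relative of the PGC-1 genes, had 8.56 ± 2.79 in AdIGF1RKO and 7.96 ± 0.987 in Flox. Esrrg, a relative of Esrra, was below the filter with 0.779 ± 0.405 in AdIGF1RKO and 0.582 ± 0.209 in Flox. Of 15 tested isoform and family partners 0 passed the limma test, 8 were positive and 7 negative, with a median log2 difference of 0.01 against -0.02 for all tested genes. Elovl1, an elongase that like Elovl3 lengthens saturated chains, had 61.9 ± 3.25 in AdIGF1RKO and 52.5 ± 6.95 in Flox. The partner with the smallest p was Cox4i2, the oxygen-responsive isoform of subunit 4. It had 13.2, 10.8 and 13.1 scaled CPM in AdIGF1RKO, against 8.84, 7.85 and 6.92 in Flox. All AdIGF1RKO libraries of Cox4i2 lay above all Flox libraries, as for 4.41% of all tested genes, and the log2 difference was 0.59 (SE 0.13, limma unadjusted p = 0.00373, adjusted p = 0.998). The separation held in all 5 library scalings compared. Pecam1, Cdh5, Erg and Robo4, 4 of the 7 endothelial markers, were separated in the same direction, with summed marker levels of 460 to 550 scaled CPM in AdIGF1RKO and 402 to 459 in Flox, and their part in the Cox4i2 difference was not tested.

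Partners and repressors of the member regulators did not pass the limma test in either direction. Of 31 tested genes 14 were positive and 17 negative, with a median of -0.05. Groups were fully separated in 1 of the 31 with AdIGF1RKO higher and in 2 with AdIGF1RKO lower. Over all tested genes these shares were 4.41% and 3.86%. Zfp423, Irf4 and Zfp516 are named here because their limma p was the smallest in this list. Zfp423, which holds white adipocytes in their state by restraining Ebf2, had 25.6, 16.0 and 21.5 scaled CPM in AdIGF1RKO, against 11.7, 13.5 and 15.7 in Flox. The AdIGF1RKO libraries of Zfp423 lay above the Flox libraries by a small gap, and the log2 difference was 0.58 (SE 0.19, limma unadjusted p = 0.0220, adjusted p = 0.998). With the values as deposited the groups of Zfp423 overlapped. Irf4, a fasting- and cAMP-induced partner of PGC-1α, had 14.2, 12.7 and 16.7 in AdIGF1RKO, against 18.0, 40.4 and 18.2 in Flox, and Flox 2 stood far above the rest. Zfp516, an activator of brown fat genes that binds PRDM16, had 4.94, 4.58 and 4.36 in AdIGF1RKO, against 5.68, 5.09 and 6.32 in Flox. Irf4 and Zfp516 were separated with median-ratio scaling and with size factors without muscle genes. Both overlapped with libraries scaled to equal sums, and Zfp516 also with equal sums of mature adipocyte markers.

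Signals that feed the programme from outside the cell were mixed. Of 29 tested genes of adrenergic, thyroid hormone and FGF21 input 0 passed the limma test, 8 were positive and 21 negative, with a median of -0.06. The number of negative genes was 18 without AdIGF1RKO 3 and Flox 3, 16 without Flox 3 and 17 without AdIGF1RKO 2. The medians of these fits were -0.05, -0.09 and -0.06. The AdIGF1RKO libraries all lay above the Flox libraries in 2 of the 29 and below in 2, against 4.41% and 3.86% of all tested genes. Npr3, Thrb and Crtc2 are named for the smallest p of this list. Npr3, the receptor that clears natriuretic peptides, had 187, 254 and 261 scaled CPM in AdIGF1RKO, against 134, 159 and 86.7 in Flox. Thrb, a thyroid hormone receptor gene, had 9.48, 11.7 and 11.7 in AdIGF1RKO, against 13.5, 13.4 and 13.5 in Flox, and its log2 difference was -0.28 (SE 0.11, limma unadjusted p = 0.0451, adjusted p = 0.998). Crtc2, a coactivator of the cAMP response factor CREB, had 33.0, 30.8 and 32.4 in AdIGF1RKO, against 35.7, 36.9 and 38.6 in Flox. Thrb and Crtc2 overlapped between groups with equal sums and with equal sums of mature adipocyte markers. Both stayed separated with size factors without muscle genes, while Npr3 stayed separated in all 5 scalings. Adrb3, the main adrenergic receptor of mouse adipocytes, had 308 ± 60.8 in AdIGF1RKO and 372 ± 108 in Flox.

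Fgf21, which encodes a fasting hormone that also promotes browning, was singled out after its values were seen. It was below the filter, with 54, 56 and 48 reads in AdIGF1RKO, against 18, 10 and 17 reads in Flox. In scaled CPM these were 0.700, 0.792 and 0.756 in AdIGF1RKO, against 0.254, 0.143 and 0.352 in Flox, and the ratio of means was 3.00. The groups of Fgf21 did not overlap in any of the 5 scalings. In the fit without a filter its log2 difference was 0.49 on the scale with 1 added (limma unadjusted p = 0.00182, adjusted p = 0.999), which understates the change of so low a gene.

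Brown and beige adipocyte markers outside the members had values in both directions. Ucp1, Bmp8b and Zic1 are not analysed here, and 30 of the 33 others in the table were tested. None passed the limma test, 13 were positive and 17 negative, and the median was -0.02, the same as for all tested genes. The AdIGF1RKO libraries all lay above the Flox libraries in 2 of the 30 and below in 1, against 4.41% and 3.86% of all tested genes. Tnfrsf9, Slc4a4 and Acot2 are named for the smallest p of this list. The list's median was -0.12 with 20 of 30 negative without AdIGF1RKO 2, 0.04 with 13 negative without Flox 3, and 0.06 with 11 negative without AdIGF1RKO 3 and Flox 3. Tnfrsf9, which encodes the beige cell marker CD137, had 1.36, 1.70 and 1.15 scaled CPM in AdIGF1RKO, against 0.494, 0.770 and 0.808 in Flox. All AdIGF1RKO libraries of Tnfrsf9 lay above all Flox libraries, and the log2 difference was 0.51 (SE 0.17, limma unadjusted p = 0.0246, adjusted p = 0.998). Its mean was 1.40 in AdIGF1RKO and 0.691 in Flox, so it passed the filter only through the group where it is higher. The separation and the p of Tnfrsf9 are therefore not read as support. They rest on 73 to 120 reads in AdIGF1RKO and 35 to 54 in Flox. T cells also express Tnfrsf9, and the summed lymphocyte markers were 5.42 to 7.39 scaled CPM in AdIGF1RKO and 3.90 to 10.5 in Flox. Slc4a4, a bicarbonate transporter gene, had 7.25, 6.70 and 6.32 in AdIGF1RKO, against 8.15, 8.65 and 8.79 in Flox. Acot2, a mitochondrial acyl-CoA thioesterase gene, had 12.0 ± 0.646 in AdIGF1RKO and 10.5 ± 0.882 in Flox. Cpt1b, Fabp3 and Ucp3, which skeletal muscle also expresses, were chosen after their values were seen. Fabp3, a fatty acid carrier, had 1.14, 13.3 and 83.5 in AdIGF1RKO, against 32.0, 7.51 and 177 in Flox. Cpt1b, the muscle-type gate of fatty acid entry into mitochondria, had 5.34, 8.13 and 24.5 in AdIGF1RKO, against 14.5, 5.03 and 69.2 in Flox. Ucp3, an uncoupling protein relative found in muscle and brown fat, had 26.2, 21.98 and 45.8 in AdIGF1RKO, against 26.9, 28.0 and 90.2 in Flox. Fabp3 and Cpt1b were highest in Flox 3 and next in AdIGF1RKO 3, as was Ucp3, whose 4 other libraries did not follow the muscle share. Flox 3 was the highest library for 10 of the 30 tested genes of this list (33.3%), against 30.8% of all tested genes.

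**Figure D4:**
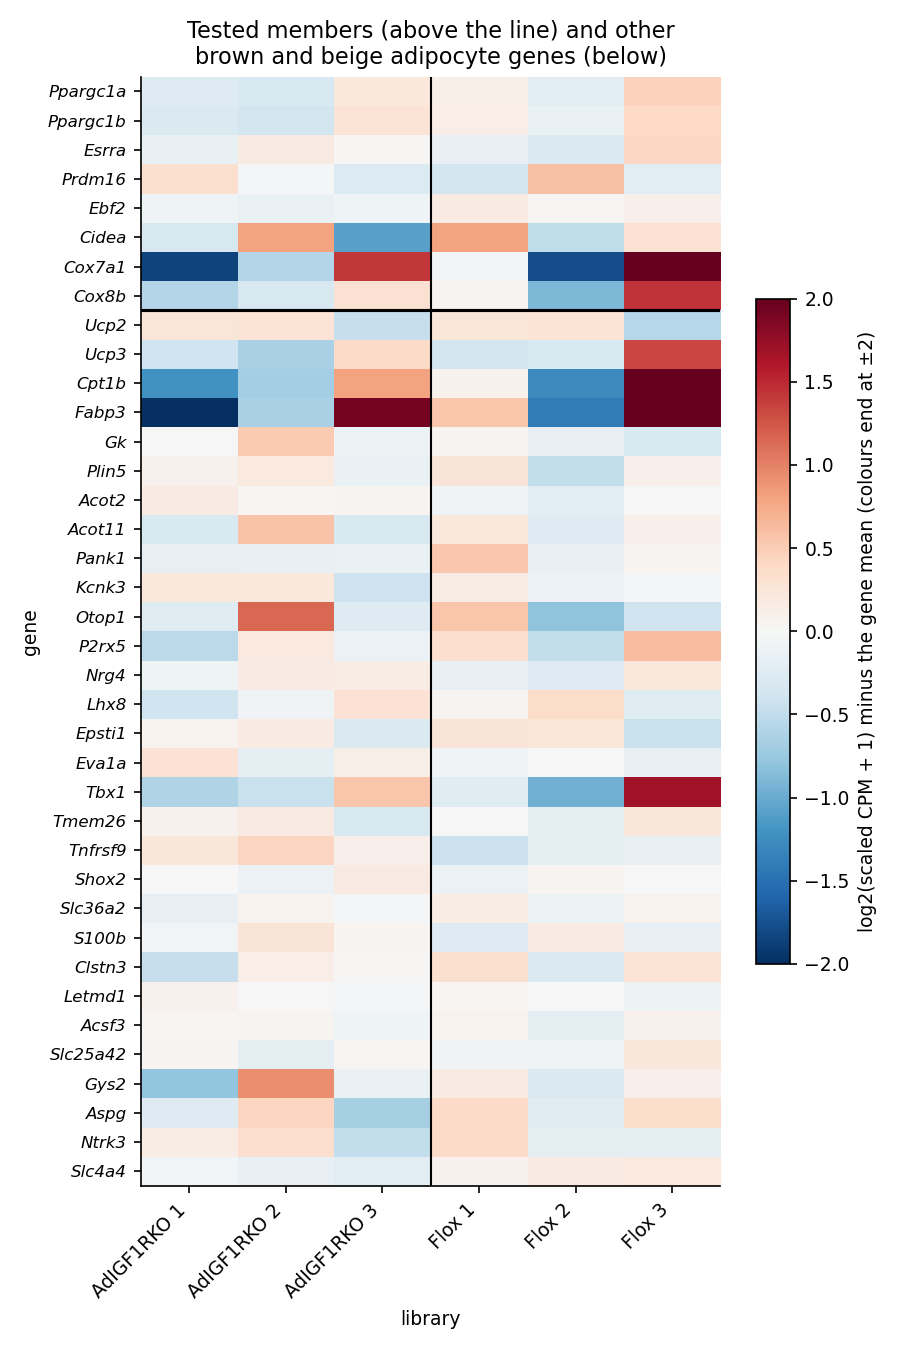
Log2(scaled CPM + 1) of each gene minus its mean over the 6 libraries (colour, ending at ±2), for the 8 tested members above the line and 30 other tested brown and beige genes below it, with AdIGF1RKO libraries left and Flox libraries right. Cox7a1, Cox8b, Cpt1b, Fabp3 and Ucp3 are highest in Flox 3, whereas Cidea, Otop1 and Aspg are high in AdIGF1RKO 2 and Flox 1.

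Genes of mitochondrial biogenesis, which the PGC-1 and ERR proteins induce, gave 0 calls among 28 tested genes. Of these 7 were positive and 21 negative, with a median log2 difference of -0.11. The AdIGF1RKO libraries all lay above the Flox libraries in 1 of the 28 and below in 1, against 4.41% and 3.86% of all tested genes. Sirt3, Sod2 and Polrmt are named for the smallest p of this list. Without Flox 3 the median was 0.07 with 9 negative, and without AdIGF1RKO 3 and Flox 3 it was 0.03 with 11 negative. Sirt3, the main mitochondrial deacetylase gene, had 29.8, 27.8 and 24.3 scaled CPM in AdIGF1RKO, against 32.6, 31.0 and 31.8 in Flox. Sod2, the mitochondrial superoxide dismutase gene, had 168, 221 and 165 in AdIGF1RKO, against 163, 151 and 142 in Flox. Polrmt, the mitochondrial RNA polymerase gene, had 18.3 ± 3.08 in AdIGF1RKO and 14.5 ± 2.41 in Flox. Sirt3 and Sod2 were separated between groups with median-ratio scaling and with size factors without muscle genes. Both overlapped with equal sums and with equal sums of mature adipocyte markers. Sirt3, Sod2 and Polrmt did not pass (limma adjusted p = 0.998 each).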

How the data were processed

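RNA-seq values of 6 libraries of mouse inguinal fat were analysed, 3 per group. The authors deposited 1 table whose name says FPKM. The deposited signal was tested on the file: within a rounding tolerance of 0.5, 100.0% of values were whole reads times 1000000000 over 1 divisor per library, not divided by gene length. The submitters' processing notes name the build GRCm39. For aligner, counter, annotation and filters, details were not given in the sources used here. In the table no value is 0 and the lowest is 1 read.

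Recovered reads (median gene 755 to 1120) were divided by median-ratio size factors (0.731 to 1.17), and 1 read corresponds to 0.0130 to 0.0207 scaled CPM. The filter kept 12993 genes whose mean reached 1 scaled CPM and left out 1868. The test was limma 3.58.1 in R 4.3.3, with a trended prior, after adding 1 and taking log2. edgeR 4.0.16 and DESeq2 1.42.0 on the recovered reads were alternatives. The limma and edgeR steps were tested on simulated data. Members, lists and tests were chosen with earlier results of these data known. Named genes are the members, Igf1r, the 3 genes with the smallest p in each list, fixed family partners, and the 3 genes most like each member that spans over 4 times, except Dio2, which was below the filter. Additions are stated where they occur. The replicate number was fitted as a block as an alternative, and the block changed no call. Deviations from the group mean correlated across genes at 0.347, 0.349 and 0.834 between same-numbered libraries 1, 2 and 3. Crossed pairs correlated at 0.700 (AdIGF1RKO 1 with Flox 2) and 0.326 (AdIGF1RKO 2 with Flox 1). These values therefore do not show that libraries are paired by number. Sequences and names came from RefSeq GRCm38.p6 and lengths from GENCODE vM21.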

Additional observations from a re-analysis of the deposited data

How the results depend on the processing

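With only 3 libraries per group and muscle RNA between 0.0436% and 12.9% of reads, limits on the muscle-linked members are wide. The count of 0 members past the threshold held in all 21 alternatives. The count of 0 genes over the whole table held in 19 of them, and was 23 with DESeq2 and 1 without Flox 1, so leaving out 1 library gave 0 to 1. The members' median log2 difference was negative in every alternative, from -0.40 to -0.09. With same-numbered libraries paired in a block, differences in this balanced design (-0.25 for that median, -0.57 for the ratio of Cox7a1, -0.30 for that of Cox8b and -1.74 for that of Cox6a2) equal the unpaired ones by construction and say nothing on stability. The block changed no call, and the exact paired permutation p-values of the ratios were 0.5, 0.75 and 0.5, where 3 pairs cannot give less than 0.25. Ppargc1a, Ppargc1b and Ebf2 kept a negative sign in every alternative that gave a value. The filter at a mean of 5 gave none for Ppargc1a and Ppargc1b. The count at an unadjusted p under 0.05 was 385, and 515 with the values as deposited, 244 with equal sums, 582 with the block, 857 with array quality weights and 242 to 475 when 1 library was left out. Of 44 named tested genes 21 never changed sign. The cause of the sign changes below was not tested. With the values as deposited, log2 differences that changed sign were -0.14 for Prdm16, -0.13 for Esrra, -0.12 for Cidec, -0.083 for Pprc1 and -0.15 for Ebf1. With libraries scaled to equal sums, log2 differences that changed sign were 0.0045 for Cox7a2, 0.023 for Cox8a and 0.11 for Mecom. With quantile normalization, log2 differences that changed sign were 0.0027 for Cox8a and 0.020 for Mecom. With equal sums of adipocyte markers, an alternative chosen after seeing the data, log2 differences that changed sign were 0.078 for Mecom. With the muscle share as a covariate, log2 differences that changed sign were -0.14 for Prdm16, 0.15 for Cox7a1, -0.020 for Cidec, -0.040 for Ebf1, 0.23 for Serinc2, 0.15 for Smco1, 0.16 for Pkia and 0.12 for Cacna2d4. Without AdIGF1RKO 3 and Flox 3, log2 differences that changed sign were 0.10 for Cidea, -0.058 for Cidec, -0.20 for Pprc1, 0.018 for Mecom, -0.12 for Ebf1, 0.10 for Klhl23, 0.014 for Aspg, 0.060 for Tmem253 and 0.067 for Kcnk5. With array quality weights, log2 differences that changed sign were 0.20 for Cox7a1, -0.083 for Ebf1, 0.44 for Serinc2, 0.20 for Smco1, 0.37 for Pkia, 0.041 for Klhl23, 0.15 for Cacna2d4, -0.016 for Otop1 and 0.11 for Ucp3. With edgeR, log2 differences that changed sign were -0.043 for Prdm16 and -0.0012 for Esrra. With DESeq2, log2 differences that changed sign were -0.042 for Prdm16. Leaving out 1 library at a time changed signs, with ranges of -0.18 to 0.30 for Prdm16, -0.11 to 0.24 for Esrra, -0.90 to 0.049 for Cidea, -1.74 to 0.57 for Cox7a1, -0.95 to 0.22 for Cox8b, -0.21 to 0.042 for Cox8a, -0.055 to 0.18 for Cidec, -0.16 to 0.23 for Pprc1, -0.073 to 0.11 for Mecom, -0.12 to 0.091 for Ebf1, -1.57 to 0.72 for Serinc2, -1.87 to 0.61 for Smco1, -1.60 to 0.63 for Pkia, -0.87 to 0.28 for Klhl23, -0.96 to 0.17 for Eda2r, -0.77 to 0.34 for Cacna2d4, -0.85 to 0.0056 for Tmem253, -0.47 to 0.078 for Kcnk5, -0.032 to 0.82 for Otop1, -1.54 to 0.23 for Cpt1b and -0.75 to 0.12 for Ucp3. The isoform ratio differences ranged from -1.54 to 0.57 for Cox7a1 to Cox7a2 and -0.89 to 0.40 for Cox8b to Cox8a. That of Cox6a2 to Cox6a1 stayed negative, from -3.51 to -0.083. Without AdIGF1RKO 3 and Flox 3 the difference of Cox8b to Cox8a was 0.18. Those of Cox7a1 to Cox7a2 and Cox6a2 to Cox6a1 stayed negative there.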
